A study of Sus scrofa with 14 samples.

Results

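The genes described here encode the proteins of the cytosolic ribosome, measured in pregnant uterus. Members were the genes whose symbol in the array annotation is RPL or RPS followed by a digit, or RPLP0, RPLP1, RPLP2 or RPSA, without the RPS6K kinases, and each gene stood for its brightest probe set with a single symbol. This gave 64 of the 6765 genes named on the array, of which 31 belong to the core of the large (60S) subunit, 3 to its stalk and 24 to the small (40S) subunit. The other 6 were 5 paralogs (RPL7L1, RPL22L1, RPL26L1, RPL36AL and RPS27L) and RPS19BP1, whose symbol meets the rule but which encodes a protein that binds RPS19 and is not itself part of the ribosome.

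The uterus came from 14 crossbred F2 sows of Iberian x Meishan origin, killed between days 30 and 32 of gestation at parity 5, 1 Affymetrix porcine array per sow. The labels class 5 sows as high and 9 as low prolificacy and give neither treatment nor age, and all animals share breed cross, tissue and stage. The labels do not say which layer of the uterine wall was sampled. High 5 and low 3 stood apart from the other 12 arrays over the whole array, as described further on, where the members' counts are given without them. The study compared transcript levels between the 2 classes. Values are log2 levels summarised with RMA, and every difference is high minus low prolificacy.

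A ribosome is built from ribosomal RNA and a fixed set of proteins, most of them present as a single copy in each particle, and the small subunit reads the message while the large subunit joins the amino acids. The genes of these proteins are usually expressed together, and their messages are among the most abundant in any growing cell. Most carry a run of pyrimidines at their very start, the TOP motif, through which the mTOR pathway adjusts their translation together with that of elongation factors. Several members (RPLP0, RPL4, RPL13A, RPL19, RPL32, RPS18) are widely used as reference genes in qPCR, which rests on their levels being stable between samples.

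The ribosomal protein messages lay near the top of the array's scale. Of the 64 members, 56 had a mean level above 11, where the array medians ran from 5.72 to 5.84 and the highest value of any array was 14.07. The brightest members were RPS18 at a mean level of 13.44, RPS20 at 13.14, RPLP0 at 12.92, RPS19 at 12.80 and RPS29 at 12.79. Levels of different probe sets do not rank their transcripts, because each set has its own probes. The dimmest members were RPS15A at 3.68, RPL26 at 4.02, RPL30 at 4.83, RPS19BP1 at 7.76 and RPL37 at 7.94, and the first 3 of these lay under the median of every array. With no detection calls, whether those 3 probe sets reported their transcript at all is not known. How far the top of the scale compresses differences between bright probe sets was not tested.

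No ribosomal protein gene passed the test between high and low prolificacy. In limma, 0 of 64 members had an adjusted p under 0.05, in a comparison that called 7.85% of the 23999 probe sets (3.5% higher, 4.35% lower) and 10.8% of the 6765 genes (5.34% higher, 5.42% lower). At an unadjusted p under 0.05, 13 members were higher and 0 lower, which is 20.3% of the members, against 21.1% of all probe sets and 26.8% of all genes in either direction. In the higher direction alone this held for 11% of all probe sets and 15.8% of all genes. The high and low groups overlapped in each of the 64 members, and the groups did not overlap in 2.64% of all probe sets and 3.78% of all genes. With array weights 9 members passed as higher, where 6.37% of all probe sets did. The trophoblast list mean as a covariate gave 1 (4.5% of all probe sets) and the mean of a gene's probe sets gave 1 (3.61%). Leaving out high 1 gave 3 (5.42%) and leaving out low 8 gave 2 (3.11%).

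The differences were small and mostly above 0. Their median was 0.17 on the log2 scale, a 1.12-fold level, and 52 of 64 differences were above 0. Over all genes the median was 0.073 with 60.1% above 0, and over the 215 other probe sets of mean level above 11 it was 0.060 with 56.3% above 0. The median was 0.17 over the 31 core proteins of the large subunit, 0.15 over the 3 stalk proteins and 0.18 over the 24 small subunit proteins, with 24, 3 and 21 differences above 0. The sign of the members' median did not hold in every fit. With the means of the smooth muscle and epithelium marker lists as covariates it was -0.15 and 2 of 64 differences were above 0. The median over all probe sets also turned in that fit, from 0.039 to -0.060. These list means together held 83.3% of the variance of the group term. In these bulk samples, fewer cells of a type and less RNA per cell cannot be told apart.

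**Figure D1:**
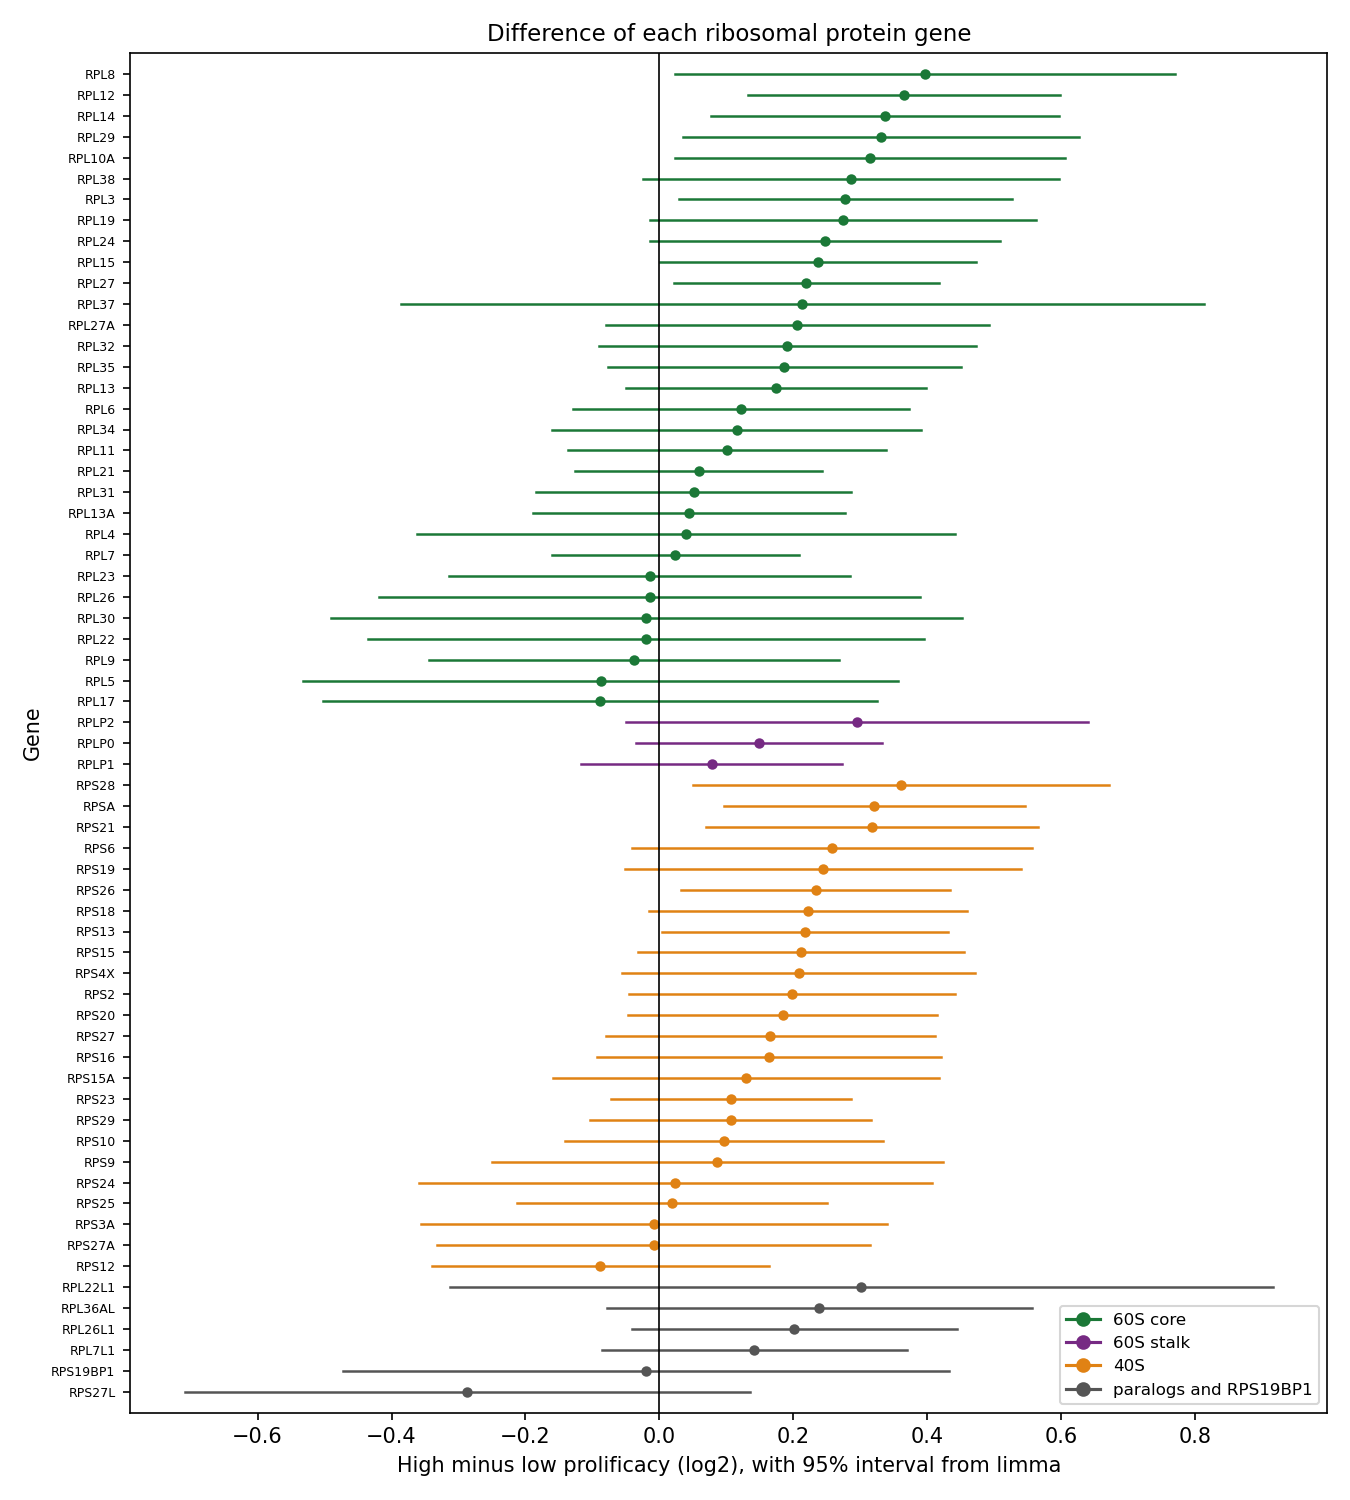
Each point is the high minus low prolificacy difference of a member on the log2 scale and each line its 95% interval from limma, with genes ordered by difference within the 60S core, the 60S stalk, the 40S subunit, and the paralogs with RPS19BP1. Of the 64 intervals 51 include 0, and all lie between 0.61-fold and 1.89-fold.

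Each interval is for a single gene in the main fit, without adjustment for the number of genes, and does not cover the other fits. In all 64 members the 95% interval lay within 2-fold in either direction, and in 53 it lay within 1.5-fold. The widest upper bound was 1.89-fold, in the paralog RPL22L1, and the lowest lower bound 0.61-fold, in the paralog RPS27L. The members' standard errors ran from 0.084 to 0.29, with a median of 0.12 against 0.20 over all genes.

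RPL12, which sits with RPLP0 at the base of the stalk where elongation factors dock, had the smallest p of the members. Its level was 12.14 in high 1, 12.62 in high 2, 12.69 in high 3, 12.52 in high 4 and 12.55 in high 5, and from 11.99 to 12.46 in the 9 low arrays, with a median of 12.11. High 1 lay among the low arrays, and the other 4 high arrays lay above all of them. High sows averaged 12.51 ± 0.21 (SD, n = 5) against 12.14 ± 0.14 for low sows (SD, n = 9), which differ by 0.37 ± 0.11 (SE, limma adjusted p = 0.055). It passed without high 1 or without low 8, and over the 14 fits that left out an array the adjusted p ran from 0.011 to 0.16. The dimmer RPL12 probe sets, at mean levels of 5.90 and 6.40, differed by 0.14 and -0.18. With the mean of the gene's probe sets the limma adjusted p was 0.53.

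RPSA, a small subunit protein also known as the laminin receptor, came next. Its level was 12.43, 12.78, 12.88, 12.69 and 13.02 in high 1 to high 5, and between 12.31 and 12.60 in the low arrays, with a median of 12.41. Again 4 of 5 high arrays lay above all low arrays and high 1 did not. The difference was 0.32 ± 0.10 (SE, limma adjusted p = 0.078), and it passed only without high 1 among the 14 fits that left out an array (adjusted p from 0.019 to 0.20).

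RPL8, a large subunit protein near the catalytic centre, had the largest difference, 0.40 ± 0.17 (SE, limma adjusted p = 0.20). It was at 12.03, 12.46, 12.49, 12.02 and 13.06 in high 1 to high 5 and between 11.71 and 12.56 in the low arrays. High 5 alone lay above every low array, and without it the difference was 0.24. RPS28, a small subunit protein, differed by 0.36 ± 0.15 (SE, limma adjusted p = 0.16), from 12.31 ± 0.24 for low sows (SD, n = 9) to 12.67 ± 0.28 for high sows (SD, n = 5). High 5 (13.03) lay above all low arrays, and high 3 and low 3 were level at 12.79. RPL14 differed by 0.34 and RPL10A by 0.31, both large subunit proteins, with all 5 high arrays above the low median and at limma adjusted p of 0.11 and 0.20.

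At the other end, the members with the most negative differences were RPS27L, RPL17 and RPS12. RPS27L, a p53-responsive paralog of RPS27, averaged 9.50 ± 0.51 for high sows (SD, n = 5) against 9.79 ± 0.27 for low sows (SD, n = 9), which differ by -0.29 ± 0.20 (SE, limma adjusted p = 0.46). RPL17, which lies at the exit of the peptide tunnel, differed by -0.088, and RPS12, of the small subunit, by -0.088. RPL17 stood between 12.84 and 13.02 in high 1 to high 4 and at 11.69 in high 5. Without high 5 its difference was 0.16, so the sign rested on that array.

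Among the reference genes the differences ran from 0.040 to 0.27. RPL4 differed by 0.040 (95% interval -0.36 to 0.44), RPL13A by 0.045 (-0.19 to 0.28), RPLP0 by 0.15 (-0.035 to 0.33), RPL32 by 0.19 (-0.091 to 0.47), RPS18 by 0.22 (-0.015 to 0.46) and RPL19 by 0.27 (-0.014 to 0.56). None passed in limma. They were not equally steady within a group. RPLP0 varied least, with a within-group SD of 0.10 and a range of 0.43 over the 14 arrays, and RPL4 most, with an SD of 0.35 and a range of 1.33. RPL4 stood at 11.30 in high 5 and at 12.32 to 12.63 in the other high arrays. Over all members the within-group SD had a median of 0.20 (0.093 to 0.55), against 0.38 over all genes, and 59 of 64 members varied less than the median gene.

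RPS6 is the small subunit protein that S6 kinases phosphorylate when mTOR is active, and RPL5 and RPL11 carry the 5S ribosomal RNA and bind MDM2 when ribosome assembly fails. RPS6 averaged 12.42 ± 0.29 for high sows (SD, n = 5) against 12.17 ± 0.21 for low sows (SD, n = 9), which differ by 0.26 ± 0.14 (SE, limma adjusted p = 0.32). RPL11 differed by 0.10 and RPL5 by -0.088, neither past the threshold. Although both proteins act in the same particle, RPL11 lay at 12.77 in high 5, within the range of the other high arrays, and RPL5 at 11.02, below all of them. RPS19, mutated in Diamond-Blackfan anaemia, differed by 0.24, with all 5 high arrays above the low median (limma adjusted p = 0.35).

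Among the other paralogs, RPL26L1 differed by 0.20 and RPL36AL, an intronless copy of RPL36A, by 0.24, RPL7L1 by 0.14 and RPL22L1 by 0.30, none past the threshold in limma. RPL22L1 was the most variable member, with a within-group SD of 0.55. It stood at 10.13 in high 5 and 9.68 in low 3, and at 10.84 or higher in the other 12 arrays. RPS19BP1 differed by -0.020, and it was highest in low 3 (8.64) and high 5 (8.36), the arrays where RPL22L1 was lowest.

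**Figure D2:**
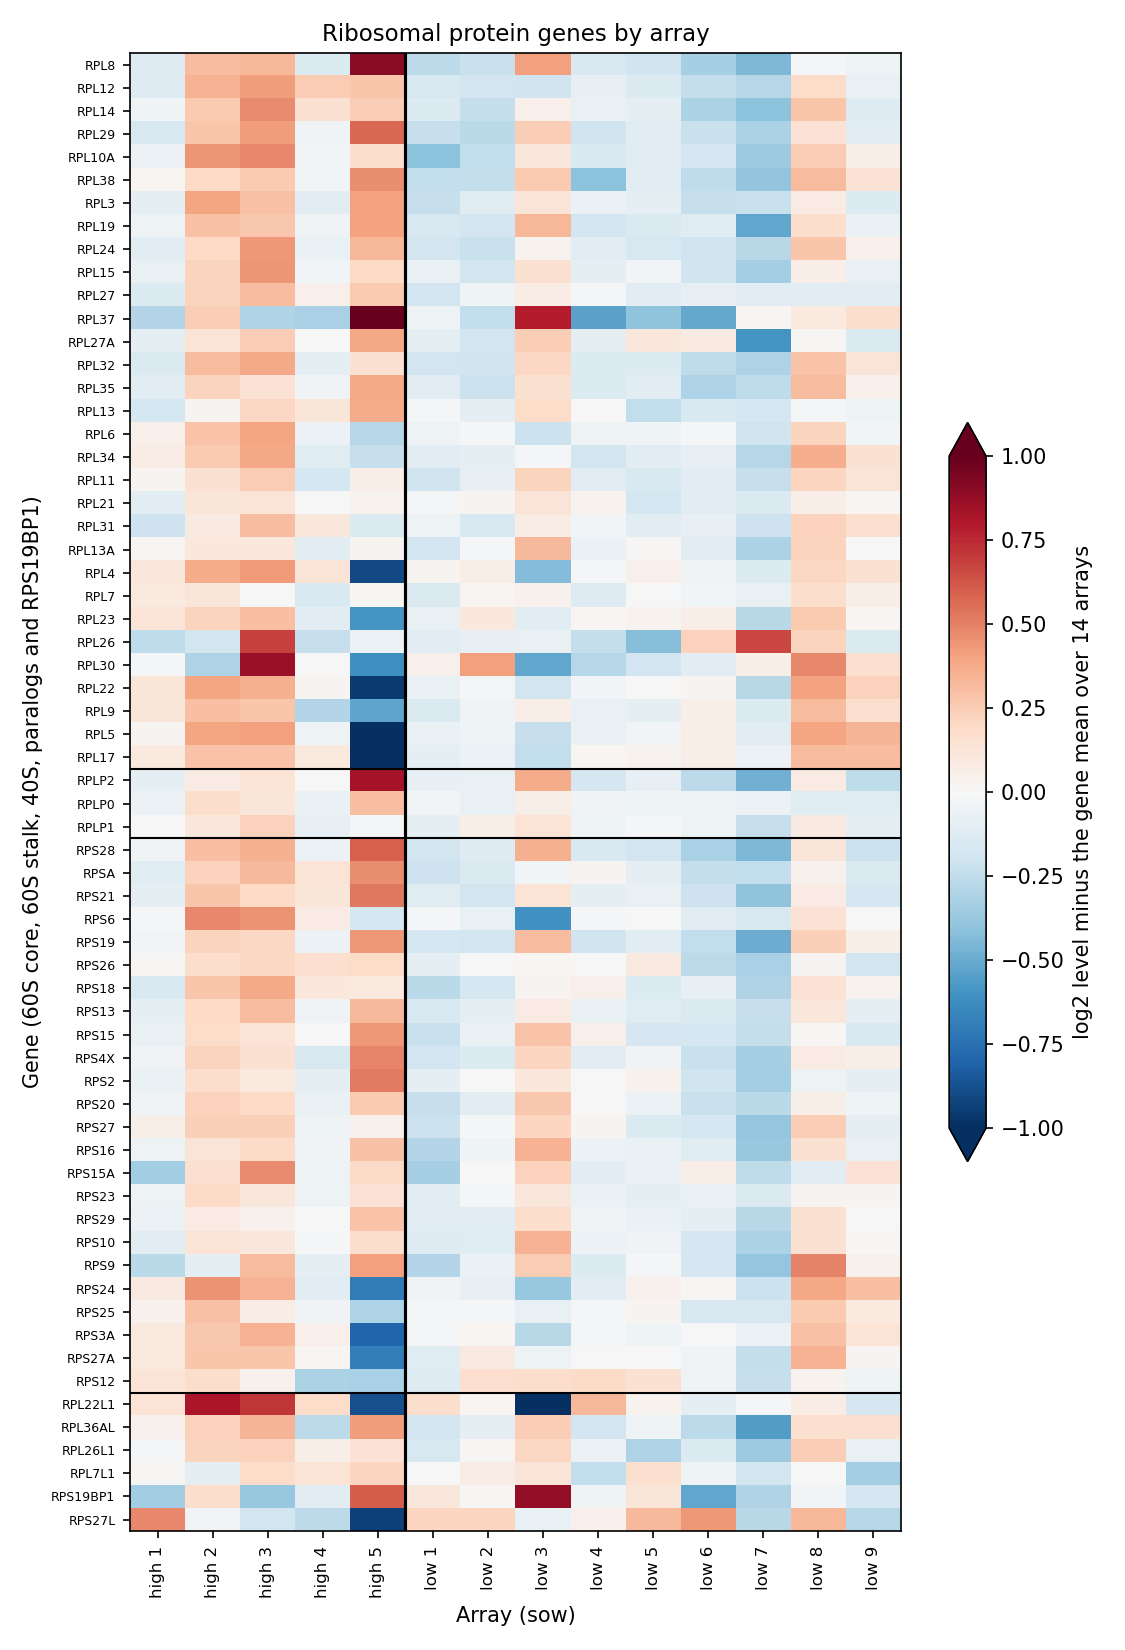
Colour gives the log2 level of each of the 64 genes (rows) in each of the 14 arrays (columns) minus that gene's mean over the arrays, with lines between subunits and between the 5 high and 9 low arrays. High 2, high 3 and low 8 are higher over most rows and low 7 lower, while high 5 and low 3 hold both strongly raised and strongly lowered rows.

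Much of the variation was shared by the members array by array. After centring each gene on its mean over 14 arrays, the mean of the members was highest in high 3 (0.27), high 2 (0.21) and low 8 (0.17) and lowest in low 7 (-0.25). In high 3, 61 of 64 members lay above their own mean, in high 2 59, in low 8 57 and in low 7 3. High 1 (-0.038) and high 4 (-0.035) lay inside the range of the low arrays, as did high 5 (0.065). High sows averaged 0.094 ± 0.14 (SD, n = 5) and low sows -0.052 ± 0.12 (SD, n = 9), a gap of 0.15 that is close to the SD within each group.

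The subunits followed one another. The 60S core and 40S means were 0.32 and 0.23 in high 3, 0.22 and 0.22 in high 2, 0.21 and 0.15 in low 8, and -0.22 and -0.28 in low 7. The 3 stalk proteins had their highest mean in high 5, at 0.37, where the 60S core mean was 0.019 and the 40S mean 0.12. They did not move alike there. RPLP2 stood at 12.08 against its mean of 11.25 over 14 arrays, and RPLP0 at 13.23 against 12.92. RPLP1, at 12.17, was level with its mean of 12.18.

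**Figure D3:**
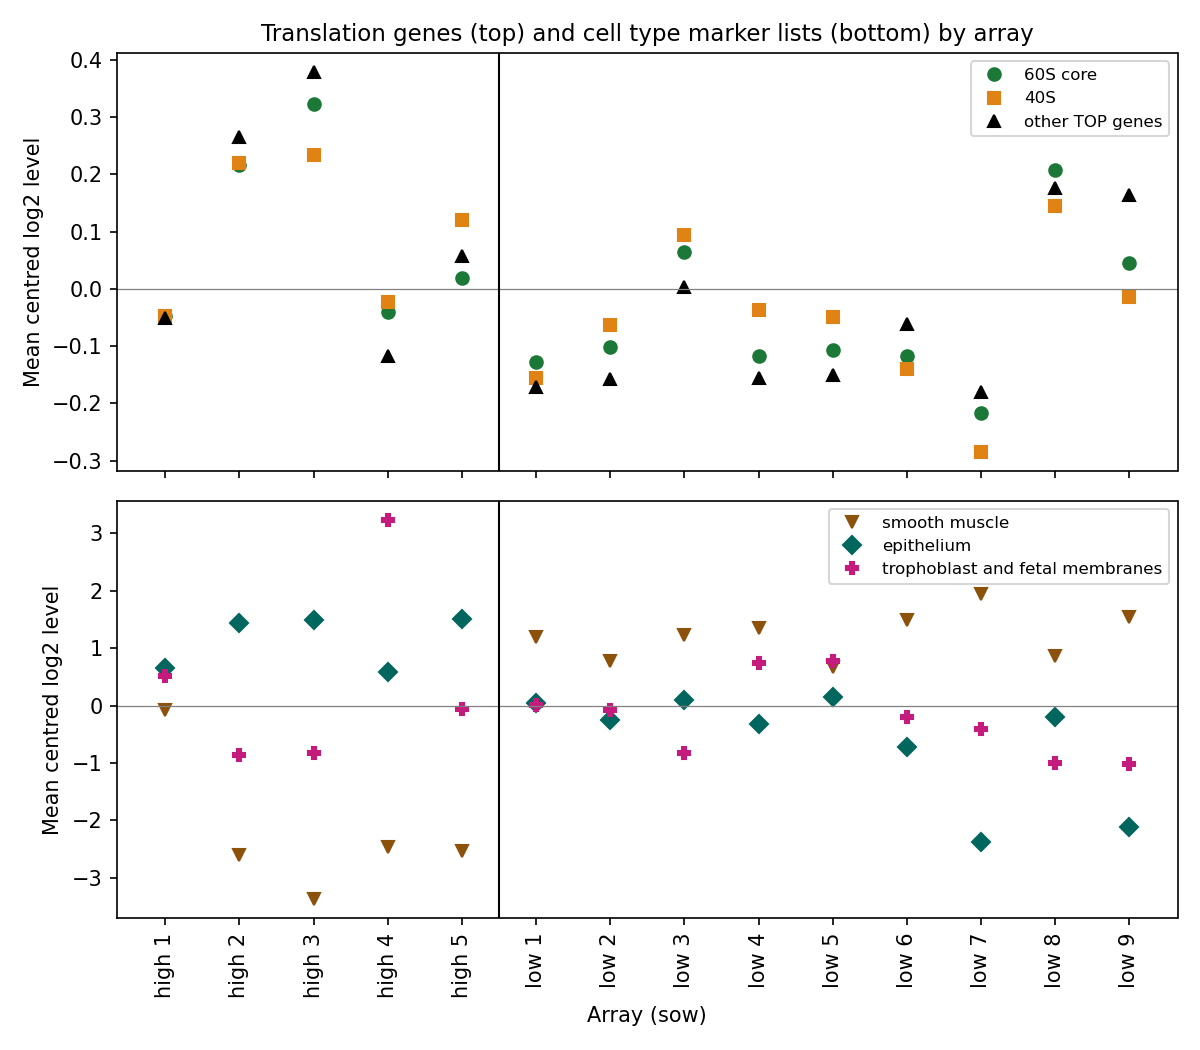
The top panel shows the mean centred log2 level of the 60S core, 40S and other TOP genes in each array, and the bottom panel that of the smooth muscle, epithelium and trophoblast marker lists on a wider scale; the line separates the 5 high from the 9 low arrays. The translation genes are highest in high 2 and high 3 and lowest in low 7, and the smooth muscle list separates the groups while the translation genes overlap.

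Markers of cell types moved between the same groups. Of 16 smooth muscle markers on the array 15 fell and 0 rose, and the list mean ran from -3.38 to -0.070 in high and from 0.68 to 1.95 in low prolificacy. Of 17 epithelium markers 9 rose and 0 fell, with list means of 0.59 or more in the high arrays and from -2.37 to 0.15 in the low arrays. High 3, where the ribosomal mean was highest, had the lowest smooth muscle mean (-3.38) and an epithelium mean second to that of high 5, and low 7, where it was lowest, had the highest smooth muscle mean (1.95) and the lowest epithelium mean (-2.37). Other arrays did not follow this order. Low 9 had an epithelium mean of -2.11 and a smooth muscle mean of 1.55 with a ribosomal mean of -0.0047. Low 8, with a ribosomal mean of 0.17, had an epithelium mean of -0.19. The smooth muscle means of high 2, high 4 and high 5 were -2.61, -2.47 and -2.54, and their ribosomal means 0.21, -0.035 and 0.065. Of 13 stromal fibroblast markers 5 fell and 1 rose, and of 11 blood endothelium markers 1 fell and 1 rose. None of the T and NK cell (11), B and plasma cell (4), macrophage and dendritic cell (10), red blood cell (4) or trophoblast and fetal membrane (12) markers passed in limma, where 2, 2, 1, 0 and 4 were higher, and 1 red blood cell marker lower, at an unadjusted p under 0.05. The trophoblast mean ran from -1.02 to 0.77 in low and from -0.86 to 3.24 in high prolificacy, with the highest value in high 4, where the ribosomal mean was -0.035. The smooth muscle and epithelium means together held 83.3% of the variance of the group term, and the fit with both as covariates called 0 probe sets. Cell type and prolificacy therefore cannot be told apart in that fit. The part of cell type in the ribosomal differences was not tested otherwise, apart from the fit with the trophoblast covariate.

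High 5 and low 3 stood apart from the other 12 arrays in how the members spread. With group means removed, the SD over the 64 members was 0.45 in high 5 and 0.32 in low 3, and from 0.095 to 0.20 in the others. In high 5, 17 members lay below all other high arrays and 27 above all of them. In low 3, 9 lay below all other low arrays and 29 above.

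Many of the same genes were shifted in both arrays, although 1 array is from each group. All 9 members below the other low arrays in low 3 were also below the other high arrays in high 5, namely RPL22L1, RPL5, RPL17, RPL4, RPS3A, RPS24, RPL30, RPL6 and RPS6. The reverse did not hold, as 17 members were below the other high arrays in high 5 and only these 9 were below in both. RPL22 lay 1.18 below in high 5, but in low 3 it was at 12.23, within the 12.13 to 12.81 of the other low arrays. A further 21 members were above the rest of their group in both, among them RPL37, RPL8, RPLP2, RPS19BP1, RPS28 and RPL29. RPL37 lay 1.52 above the mean of the other high arrays in high 5 and 0.97 above the other low arrays in low 3. RPL22L1 lay 1.34 and 1.38 below, and RPL4 1.16 and 0.47 below. These genes were singled out after their values were seen.

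**Figure D4:**
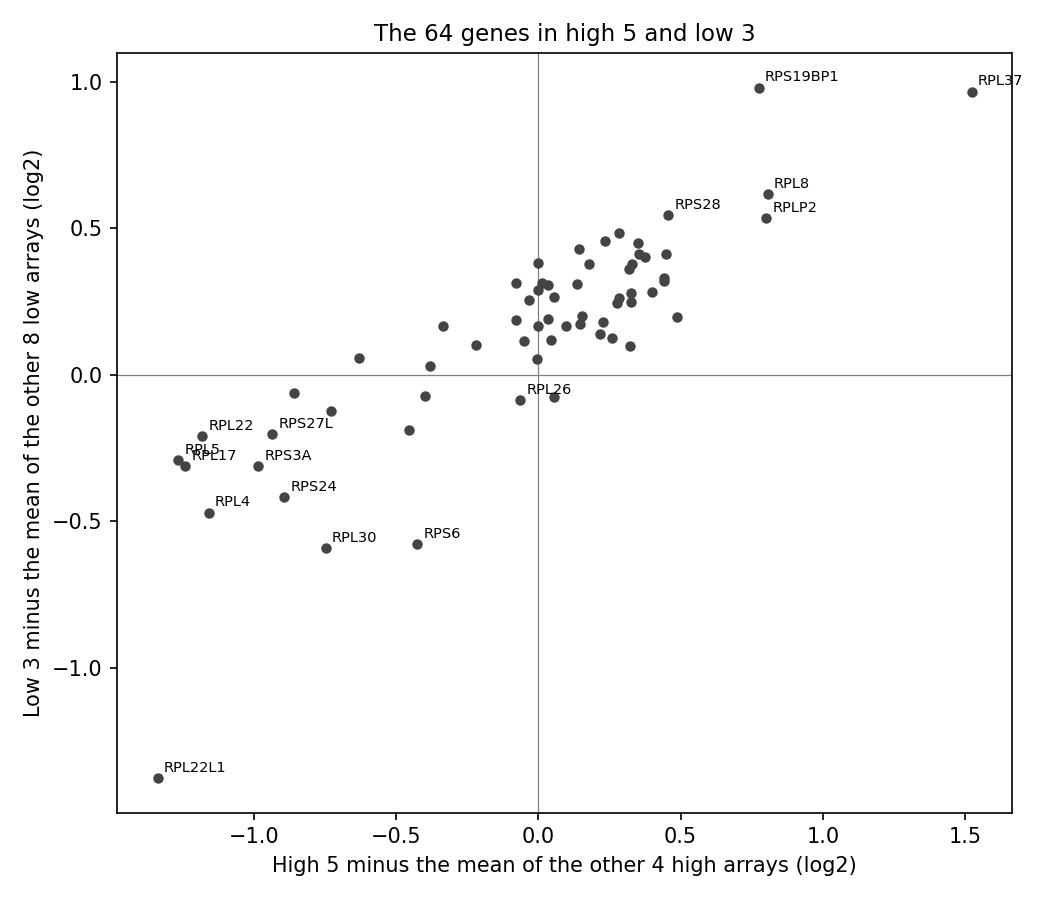
Each point is a member; the horizontal axis is its log2 level in high 5 minus the mean of the other 4 high arrays, and the vertical axis its level in low 3 minus the mean of the other 8 low arrays. The points run from RPL22L1 at the lower left (-1.34 and -1.38) to RPL37 at the upper right (1.52 and 0.97), and 52 of 64 have the same sign on both axes.

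Across the 64 members the deviations in high 5 and low 3 correlated at r = 0.86, and across the 6701 genes outside the members at r = 0.74; genes are not independent replicates, so these are descriptions. The shift was thus shared with the rest of the array. Over the genes outside the members the SD with group means removed was 0.72 in both arrays, against 0.32 to 0.56 in the others, and limma's array weights were lowest there, at 0.25 and 0.29. A poly-A spike-in control (lys, 3' probe set) was also highest in these arrays, at 6.48 in high 5 and 5.85 in low 3, with 5.73 in low 9 and 3.76 to 4.85 in the other 11; its part in the shift was not tested. On another control the arrays lay at opposite ends: the 3' minus 5' difference of the EF1A control was highest in high 5 (0.33) and lowest in low 3 (-0.16), against -0.074 to 0.20 in the other 12. The same difference for GAPDH (1.10 in high 5 and 1.03 in low 3) lay within the 0.81 to 1.79 of the other 12. That for actin (1.58 and 1.04) lay within their 0.88 to 2.11. Without high 5 and low 3, an alternative chosen after seeing the data, 0 of 64 members passed in limma (2.99% of all probe sets were called higher), 16 were higher and 0 lower at an unadjusted p under 0.05 (23.1% of all probe sets in either direction), 60 of 64 differences were above 0 and their median was 0.17.

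**Figure D5:**
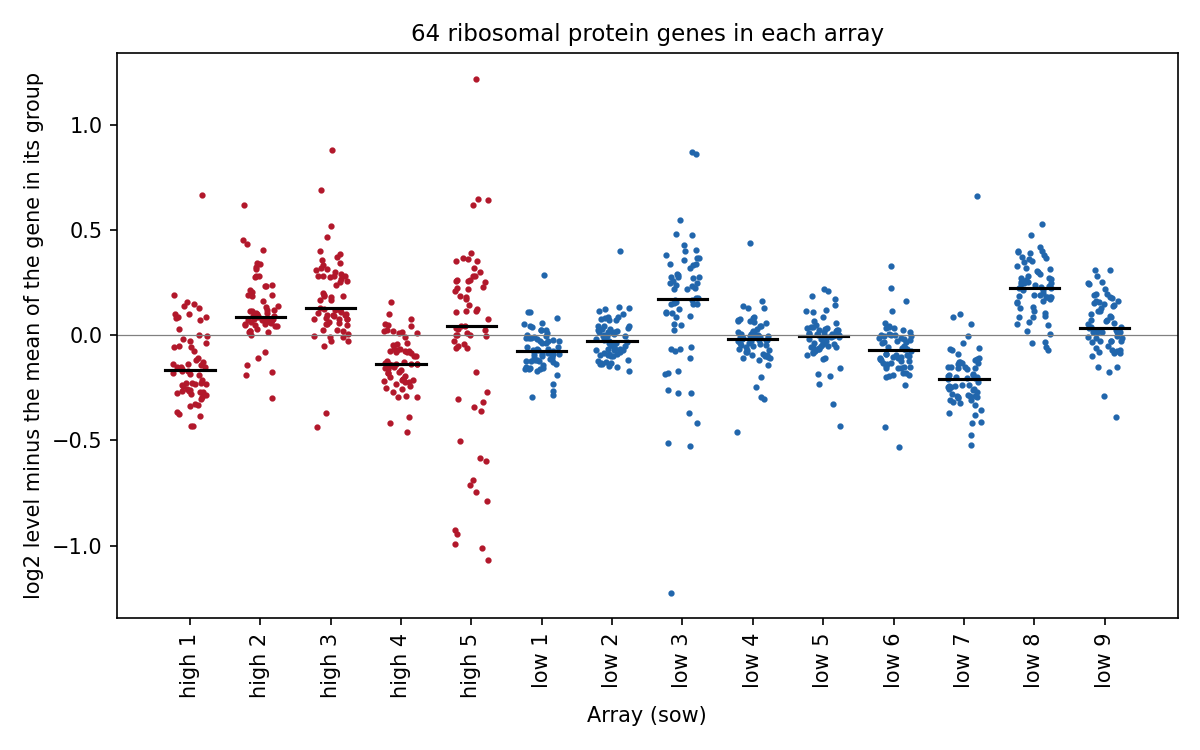
Points are the 64 members in each array as log2 level minus the mean of the gene in its group (high in red, low in blue), and black bars are medians over members. The points of high 5 reach from -1.07 to 1.22 and those of low 3 from -1.22 to 0.87, while the points of the other 12 arrays reach from -0.53 to 0.88, the latter in high 3.

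Pairs of ribosomal protein genes varied together more closely than most pairs of other genes. With group means removed, the median Pearson r over the 2016 pairs of members was 0.49 over 14 arrays, and 78.6% of pairs were above 0. Over all pairs of the 6701 other genes the median was 0.039 and 53.1% were above 0. Among the 129 other genes of mean level above 11 the median was 0.039 too. These are descriptions over arrays that share their normalisation and their cell mix. Within the 9 low arrays alone the members' median was 0.56, and within the 5 high arrays 0.50. Without high 5 and low 3 the members' median was 0.69, with 95.1% of pairs above 0, and that of other genes 0.013. Leaving out any single array gave medians from 0.46 to 0.58.

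Proteins of different subunits also varied together. Among the 54 subunit proteins of mean level above 11, the median r was 0.56 between 60S and 40S proteins, 0.55 within the 60S with its stalk and 0.64 within the 40S. The members most like the mean of the others were RPL32 (r = 0.95), RPL10A (0.94) and RPL14 (0.90). The least alike were RPL22L1 (-0.035), RPS27L (-0.026) and RPL26 (0.079), 2 paralogs and a probe set below the array medians. RPLP0, the steadiest reference gene, had an r of 0.27, and RPL4 of 0.22, the latter with its low value in high 5.

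Some genes outside the ribosome tracked the members' mean as closely. The 8 with the highest r over 14 arrays, group means removed, were the DNA damage sensor XPC (0.91), the TEAD cofactor VGLL4 (0.90), the mitochondrial kinase DGUOK (0.89), the lipoyltransferase LIPT1 (0.89), CCDC30 (0.88), the chromatin insulator protein CTCF (0.88), the nucleotide hydrolase NUDT2 (0.87) and the methyl-CpG binding protein MBD1 (0.87). None of the 8 passed in limma, and DGUOK was nearest at a difference of 0.61 (adjusted p = 0.081). An r above 0.8 was reached by 48 of the 6701 other genes, or 0.72%, and by 17 of the 64 members, or 26.6%, each member set against the mean of the others.

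For 24 members the array carried 32 further probe sets. Of these, 4 also had a mean level above 11, for RPL27, RPL31 and RPS18, and all 4 had the sign of the gene's brightest set. The RPL31 set and an RPS18 set carry the cluster name of the gene's brightest set, so their signs are not independent of it. The 2 further sets of RPS18, at mean levels of 12.38 and 11.66, differed by 0.31 and 0.43, against 0.22 for its brightest set at 13.44. The 28 dimmer sets were less alike, and over the 32 the sign matched in 22. A dim RPL23 set differed by 1.01 ± 0.22 (SE, limma adjusted p = 0.011) and a dim RPL38 set by 0.99 ± 0.23 (SE, limma adjusted p = 0.017), while the brightest sets of these genes differed by -0.014 and 0.29 and were not called. These 2 were the only ones called of the 32 further sets, where 3.5% of all probe sets were called higher and 4.35% lower. They were picked out after their values were seen. Ribosomal protein genes have many processed copies in mammalian genomes, so probes of one gene may also bind transcripts of a copy.

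Genes that work beside the ribosome were read from lists in the same fit. Of 24 other TOP genes 18 were on the array, of which 1 rose and 0 fell, where 5.34% of all genes were called higher and 5.42% lower. The list's median difference was 0.19, with 14 above 0, and 1 gene was called without high 5 and low 3 too. The gene that rose was EEF1B2, which reloads the elongation factor eEF1A with GTP. Its level was 12.39, 12.78, 12.73, 12.18 and 12.70 in high 1 to high 5 and between 11.85 and 12.28 in the low arrays. High 4 alone lay among the low arrays. The difference was 0.50 ± 0.12 (SE, limma adjusted p = 0.022), and the call was lost without high 2, without high 3 or without high 5 (adjusted p up to 0.079). TPT1 (-0.030), RACK1 (0.19), a scaffold on the small subunit, NPM1 (0.19) and PABPC1 (0.22), the poly(A) binding protein, were not called; these were picked for their familiarity. The mean of this list was highest in high 3 (0.38) and high 2 (0.26) and lowest in low 7 (-0.18), as for the members.

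In the assembly machinery of ribosomes, 70 of 95 listed genes were on the array and 0 were called, where 10.8% of all genes were. At an unadjusted p under 0.05 in limma, 16 were higher and 1 lower. This was 24.3% of the list, against 26.8% of all genes. In the higher direction alone it was 22.9% of the list, against 15.8% of all genes. Lower were 1 of 70 in the list and 743 of all 6765 genes. The list's median was 0.21. The count called was 8 of 70 without high 1 (11.04% of all probe sets called) and 5 without low 3 (10.5%). It was 7 with array weights (12.75%) and 2 with the trophoblast covariate (9.32%). Of 34 initiation factors 0 were called, with 2 higher and 2 lower (11.8% of the list) at an unadjusted p under 0.05 and a median of 0.043. The count called was 2 of 34 when high 1 was left out (11.04% of all probe sets called). It was 1 without low 2 (7.08%) or without low 3 (10.5%). With high 5 and low 3 both left out (7.72%), 2 initiation factors and 1 assembly gene were called. Of 5 elongation and termination factors EEF1B2 alone was called, at a list median of 0.36.

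In the mTOR pathway, 2 of 18 genes rose and 0 fell, at a median of 0.025, where 10.8% of all genes were called (5.34% higher, 5.42% lower). At an unadjusted p under 0.05 in limma were 22.2% of the list, against 26.8% of all genes. A list so short cannot be told from that background. RPS6KA1, a growth factor-activated kinase that the symbol rule leaves out of the members, rose by 1.19, from 5.97 ± 0.66 for low sows (SD, n = 9) to 7.16 ± 0.56 for high sows (SD, n = 5; limma adjusted p = 0.037). STK11, the kinase LKB1 that restrains mTOR through AMPK, rose by 0.80, from 7.05 ± 0.31 for low sows (SD, n = 9) to 7.85 ± 0.60 for high sows (SD, n = 5; limma adjusted p = 0.046). RPS6KA1 lost its call when high 2, 3 or 5 or low 4, 6, 7, 8 or 9 was left out, and STK11 when any array other than high 1, high 4 or low 3 was. Without high 5 and low 3 together, 0 genes of this list were called.

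Of 58 genes for proteins of the mitochondrial ribosome, a separate particle that translates mitochondrial messages, 2 rose and 1 fell, smaller shares than the 5.34% and 5.42% of all genes, with a median of 0.14. MRPS17 rose by 0.59 (limma adjusted p = 0.032) and MRPS34 by 0.63 (limma adjusted p = 0.035), both of the small mitochondrial subunit. MRPL33, of the large one, fell by 0.95 (limma adjusted p = 0.028). MRPL33 lost its call when high 2, 3 or 4 or low 9 was left out, MRPS17 when high 2, 3 or 5 or low 1, 6, 7 or 9 was, and MRPS34 in 11 of 14 such fits, all but those without high 1, low 3 or low 5. The list had 0 genes called without high 2, without high 3 or without low 9. It had 6 without low 3 (10.5% of all probe sets called) and 3 without high 5 and low 3 together (7.72%).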

How the data were processed

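The authors deposited log2 levels per probe set; the submitters' processing notes name RMA, with no settings stated in the sources used here. This method equalises probe intensity distributions between arrays, so a shift shared by most transcripts would be removed. The table held 24123 probe sets; 124 Affymetrix controls were left out and 23999 tested. Symbols came from the platform annotation, and all 64 members were found under the same symbol in the Sscrofa11.1 gene table. The 8 probe sets that name a ribosomal protein gene beside another gene were not used. Columns carry the sample names, and the labels give no batch. The labels call the samples biological replicates.

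High minus low was fitted in R 4.3.3 with limma 3.58.1 (lmFit and eBayes, two-sided, with no covariate or filter), with Benjamini-Hochberg adjustment over the 23999 probe sets and a threshold of 0.05. SE is limma's moderated error, SD is between arrays, and intervals are 95%. The procedure was tested on simulated data. Precision is limited by the number of arrays.

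The named genes were the 5 brightest and 5 dimmest members, the 3 of largest difference in each direction, RPLP0, RPL4, RPL13A, RPL19, RPL32, RPS18, RPSA, RPS6, RPL5, RPL11, the paralogs and RPS19BP1, the 3 most and 3 least correlated members, the 8 genes most like the members' mean, and up to 4 called genes of each list; called members would have been added. Other names were chosen after their values were seen. The members and lists were chosen with earlier results of these data known.

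Replicate numbers are shared between the groups, but nothing in the labels ties them, and deviations of same-numbered arrays correlated between -0.25 and 0.42, so they were not taken as pairs. Alternatives were the 12000 brightest probe sets, median subtraction, cyclic loess, array weights, trend and robust eBayes, covariates, the replicate block, a threshold of 0.10, the mean of a gene's probe sets and leaving out each array. Added after seeing the data were the 58 canonical members alone and leaving out high 5 and low 3 together.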

Additional observations from a re-analysis of the deposited data

Results flagged for a closer look

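Of 96 groups of values examined (44 named genes and 4 means of members, in each prolificacy class), 8 held an array far from the rest of its group, where chance gives about 5% of groups. Among the high arrays, RPL17 was at 11.69 and RPL4 at 11.30 in high 5, far below the others (12.84 to 13.02 and 12.32 to 12.63), and RPL26, a probe set under the array medians, was at 4.70 in high 3 against 3.77 to 3.96. Among the low arrays, low 3 was far from the others in RPS6 (11.65 against 12.10 to 12.41), RPL22L1 (9.68 against 10.84 to 11.34) and RPS19BP1 (8.64 against 7.24 to 7.88). RPL12 was at 12.46 in low 8, above the 11.99 to 12.20 of the other low arrays. The mitochondrial gene MRPL33 was at 7.00 in low 1, below the 7.41 to 7.82 of the others. High 5 or low 3 was the array concerned in 5 of these 8, and in them the array carried the shift described for both arrays.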

How the results depend on the processing

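The count of called probe sets, 1885, was 2925 at an adjusted p of 0.10, 3060 with array weights, 35 with the replicate block and 0 with the smooth muscle and epithelium covariates (291 at an unadjusted p under 0.05), and from 944 to 2650 when 1 array was left out (1002 without high 2, 944 without high 3); it was 1853 without high 5 and low 3. The count of ribosomal protein genes called higher, 0, was 9 with array weights (RPL12, RPL14, RPL10A, RPS28, RPS21, RPL29, RPSA, RPL3 and RPL8), 2 at an adjusted p of 0.10 (RPL12 and RPSA), 1 with the trophoblast covariate (RPL12), 1 with the mean of a gene's probe sets (RPL38) and from 0 to 3 when 1 array was left out (RPL12, RPSA and RPS21 without high 1; RPL12 and RPL14 without low 8). With array weights 6.37% of all probe sets were called higher. The count called lower stayed at 0 in every alternative run. At an unadjusted p under 0.05 the count higher, 13, was 30 with array weights (25.9% of all probe sets in either direction), 21 with the trophoblast covariate (22.6%) and 0 with the smooth muscle and epithelium covariates (1.21%). With 1 array left out it ran from 3 without high 3 (17.2%) to 19 without low 3 (25.8%). The members' median difference lay between 0.14 and 0.23 in the alternatives without the smooth muscle and epithelium covariates. With them it was -0.15, and the median over all probe sets was -0.060. That fit also turned MRPL33 (0.50), MRPS34 (-0.26), RPS6KA1 (-0.44) and STK11 (-0.41); the cause was not tested. With the replicate block 0 members were called, with 4 higher at an unadjusted p under 0.05 (13.3% of all probe sets) and a median of 0.14, and 1 of 5 high arrays correlated best with the low array of its own number. Of 1096 comparisons of a named gene with its main value, 931 kept direction and side of the threshold, 62 lost and 29 gained a call, 4 turned and 70 changed sign with no call on either side, 32 of them with the smooth muscle and epithelium covariates. The absence of detection calls limits what the 3 dimmest members can show.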
